A study of Homo sapiens with 3 samples.

Results

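The genes described here were the non-coding hosts of small nucleolar RNAs (snoRNAs): every gene in the table whose symbol was SNHG followed by a number alone, together with GAS5, ZFAS1, EPB41L4A-AS1 and DANCR. This rule found 32 of the 60930 genes listed. Of these, 28 had a mean of at least 1 TPM (a level scaled to gene length and to the total of the library) over the libraries and were compared. The rule reads the symbols of the genes alone, and SNHG32, which it takes in, is classed as protein-coding in GENCODE 29.

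RNA-seq was performed on PC3 cells, an androgen-independent prostate cancer line, in 3 libraries. The control library, shCON, came from cells carrying the vector control. The other libraries came from cells stably expressing shUSP16#1 or shUSP16#2, hairpins against the deubiquitinase USP16. The question was how expression in PC3 cells differs once USP16 is knocked down, and each hairpin was therefore compared with the same shCON library. Each condition had 1 library, so no difference below has a replicate check and no p-value was computed, and as both comparisons share shCON, an error in that library would move both. The cell lines were selected with puromycin, and whether a line was 1 clone or a pool is not given in the sources used here. How deeply each library was sequenced cannot be read from TPM, and no interval is given.

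A snoRNA host gene is transcribed as a longer RNA, and its snoRNAs are cut out of the introns after splicing. Box C/D snoRNAs guide ribose methylation of ribosomal RNA, box H/ACA snoRNAs guide pseudouridylation, and Cajal body RNAs do the same for spliceosomal RNAs. The spliced host RNA left behind is what RNA-seq of longer RNAs mainly counts. Many hosts begin with a pyrimidine tract of the 5′ TOP kind (terminal oligopyrimidine), shared with ribosomal protein genes, and many spliced host RNAs are degraded in the cytoplasm by nonsense-mediated decay when they are translated.

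USP16 was 19.92 TPM in shCON and 3.50 and 1.08 TPM with the first and second hairpin, so the targeted transcript was lower under both hairpins and lower under the second. MYC, the transcription factor gene at the centre of the study, was 238.14, 208.86 and 172.59 TPM in that order. The epithelial keratins KRT8 and KRT18 were at 622 TPM or more in every library, and the leukocyte gene PTPRC was at most 0.14 TPM. The fibroblast gene COL1A1 was at 4.19 TPM in shCON, 10.71 TPM with shUSP16#1 and 4.78 TPM with shUSP16#2. EPCAM and VIM, which PC3 cells also express, were lower under both hairpins, by 1.00 and 1.23 on the log2 scale under shUSP16#2. Over all 13637 genes compared, the median change in log2(TPM + 1) was -0.17 under shUSP16#1 and -0.37 under shUSP16#2, so the typical gene sat below shCON in both comparisons.

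The snoRNA host genes spanned a wide range of levels. In bulk libraries such as these, fewer cells expressing a gene and less of its RNA per cell cannot be told apart. Their summed level was 2136 TPM in shCON, then 2275 TPM with shUSP16#1 and 1857 TPM with shUSP16#2, or 0.214%, 0.227% and 0.186% of all TPM. The 6 most abundant genes held 62.7%, 63.5% and 64.8% of these sums. At the other end, SNHG31 was listed at 1.09, 0.22 and 0.04 TPM, SNHG28 at 0.13, 0 and 0.08 TPM, SNHG27 at 0, 0.18 and 0 TPM, and SNHG18 at 0 in each library. These last 4 genes fell under the minimum of 1 TPM and enter no count below.

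**Figure D1:**
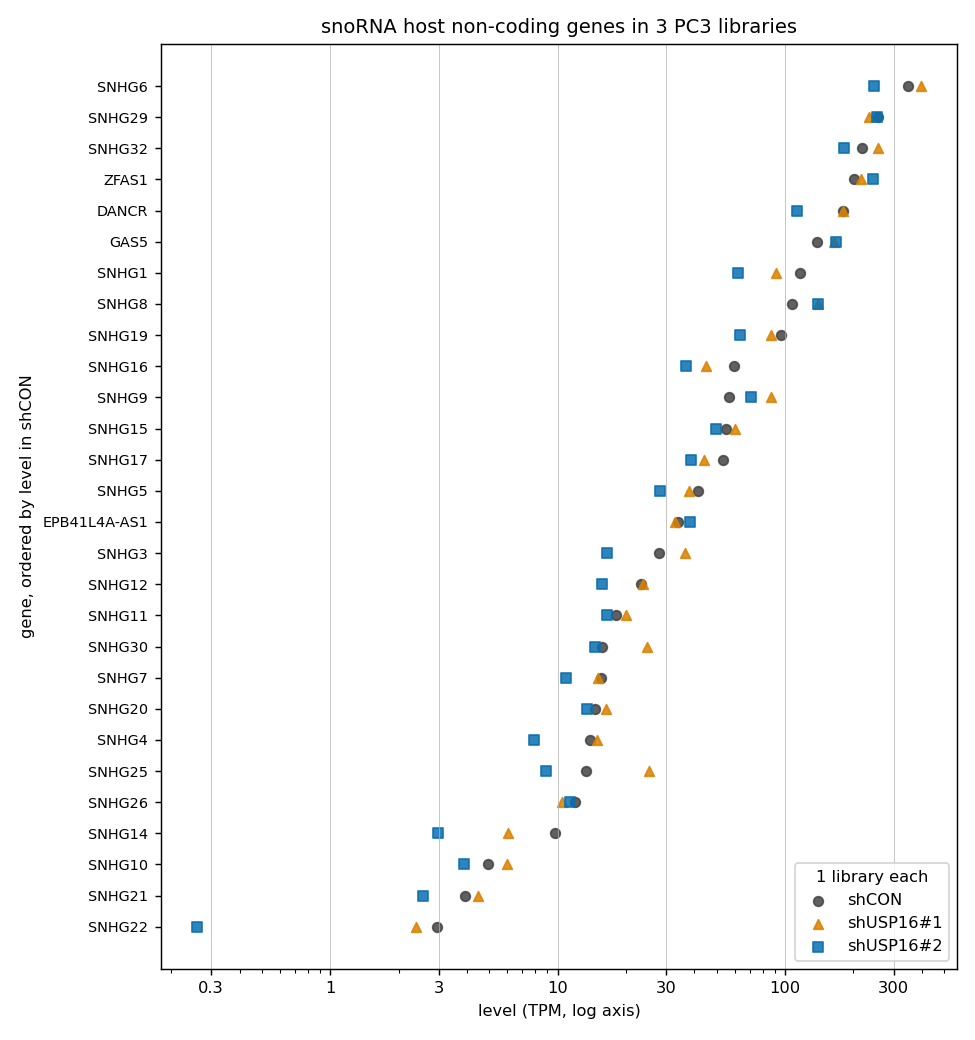
Level of each of the 28 snoRNA host genes in TPM (horizontal log axis) in the shCON, shUSP16#1 and shUSP16#2 libraries, 1 point per library. The markers of most genes lie close together over a range from SNHG22 (2.95 TPM in shCON) to SNHG6 (345.76 TPM), and SNHG22 under shUSP16#2 (0.26 TPM) stands furthest from its control.

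By RefSeq (assembly GRCh38.p14), 148 snoRNA and Cajal body RNA genes lie inside 30 of the 32 hosts: 121 of the box C/D kind, 23 of the box H/ACA kind and 4 of the Cajal body kind. SNHG14 alone holds 83 of them, and 15 hosts hold 1 each. Hosts were grouped below by the kind of guest they carry. This grouping was made after the values of the hosts were known, and nesting was judged by position without strand.

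Of the 11 compared hosts that carry box C/D genes only, SNHG14 was the lowest relative to shCON. SNHG14 (chr15:24978583-25419462, plus strand, GRCh38, GENCODE 29) is the imprinted host of the SNORD115 and SNORD116 clusters of the Prader-Willi region. Its level was 9.77 TPM in shCON, then 6.04 TPM with shUSP16#1 and 2.99 TPM with shUSP16#2, which was 61.8% and 30.6% of control. The changes were -0.61 and -1.43, and SNHG14 was the only host at least 1.5-fold lower under both hairpins, against 20.8% of all genes compared. Its exons share 141 bases with SNRPN on the same strand (48.36, 64.74 and 43.10 TPM) and 198 bases with UBE3A on the opposite strand (27.04, 12.23 and 9.02 TPM). Whether reads were assigned by strand is not stated, so the part of these neighbours in the SNHG14 value was not tested.

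SNHG1 (chr11:62851988-62855914, minus strand), the host of SNORD22 and SNORD25 to SNORD31, was at 115.95, 90.84 and 62.16 TPM, changes of -0.35 and -0.89. SNHG16, which carries the SNORD1 genes, was at 59.51, 45.02 and 36.64 TPM, changes of -0.39 and -0.68. SNHG19, the host of SNORD60, was at 96.27, 87.09 and 63.12 TPM, changes of -0.14 and -0.60. These hosts were ordered shCON, then shUSP16#1, then shUSP16#2, as USP16 itself was. The medians of all genes compared, -0.17 and -0.37, had that order too, and 73.4% of all genes were lower under shUSP16#2 than under shUSP16#1. SNHG5, which holds SNORD50A and SNORD50B, followed the same order at 41.29, 37.86 and 28.34 TPM, changes of -0.12 and -0.53.

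The most abundant box C/D hosts did not share that order. SNHG6, the host of SNORD87, was at 345.76 TPM in shCON, at 397.05 TPM with shUSP16#1 and at 244.98 TPM with shUSP16#2. SNHG32, which holds SNORD48 and SNORD52, showed the same shape at 218.94, 256.92 and 181.35 TPM. In both, the control lay between the hairpins, with changes of 0.20 and -0.50 for SNHG6 and of 0.23 and -0.27 for SNHG32. SNHG32 shares 418 exonic bases with the same-strand transcript AL671762.1 (14.83, 14.38 and 11.04 TPM). SNHG30, the host of SNORD7, was at 15.62, 24.62 and 14.60 TPM, higher under shUSP16#1 by 0.62 and near control under shUSP16#2 at -0.09.

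SNHG29 and SNHG26 stayed within 1.2-fold of control under both hairpins. SNHG29, the host of SNORD49A, SNORD49B and SNORD65, was at 256.48, 233.69 and 252.90 TPM, changes of -0.13 and -0.02. SNHG26, the host of SNORD93, was at 11.91, 10.48 and 11.30 TPM, changes of -0.17 and -0.07. ZFAS1, which carries the 3 SNORD12 genes and lies antisense to ZNFX1, was higher in both hairpin libraries at 201.15, 214.82 and 244.66 TPM, changes of 0.09 and 0.28. ZFAS1 shares 249 exonic bases with ZNFX1 on the other strand, which was at 13.19, 8.36 and 7.75 TPM. Over the 11 box C/D hosts the median change was -0.13 and -0.50, with 7 lower and 1 higher under both hairpins, where 57.2% of all genes compared were lower and 24.5% higher under both.

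Among the 10 compared hosts of box H/ACA genes only, 2 were higher under both hairpins. SNHG8 (chr4:118278709-118279823, plus strand), the host of SNORA24, was at 107.26, 139.63 and 139.15 TPM, and its changes of 0.38 and 0.37 were nearly equal. SNHG9, the host of SNORA78, was at 56.85, 86.40 and 71.06 TPM, changes of 0.60 and 0.32. SNHG9 is the most GC-rich host (66.5% GC), and after the trend of change with GC content was removed its changes were 0.19 and -0.27. For SNHG8 they were 0.41 and 0.41. The length listed for SNHG8 is 6165 bases while its longest GENCODE transcript is 10.9% of that. What sequence the listed length takes in is not stated, and its part in the level and the change of SNHG8 was not tested.

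SNHG17, the host of the SNORA71A to SNORA71D genes, was lower under both hairpins at 53.28, 44.15 and 38.75 TPM, changes of -0.27 and -0.45. SNHG7, the host of SNORA17A and SNORA17B, was at 15.50, 15.13 and 10.90 TPM, changes of -0.03 and -0.47, close to control under the first hairpin. SNHG7 shares 1094 exonic bases with FAM69B on the opposite strand (8.65, 16.47 and 17.58 TPM), a gene that moved the other way.

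DANCR, named for its antagonism of differentiation and the host of SNORA26, was at 179.09, 179.16 and 112.83 TPM. Its change was thus 0.00 under shUSP16#1 and -0.66 under shUSP16#2. SNHG4, the host of SNORA74A and SNORA74D, had the same shape at 13.93, 14.92 and 7.88 TPM, changes of 0.09 and -0.75. SNHG4 shares 626 exonic bases with MATR3 on the same strand, which was listed at 6.31, 4.29 and 1.39 TPM. SNHG3, the host of SNORA73A and SNORA73B, was at 28.01, 36.26 and 16.49 TPM, so that control lay between the hairpins and the changes were 0.36 and -0.73. It shares 242 exonic bases with the same-strand gene RCC1 (91.54, 67.11 and 59.25 TPM).

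The other H/ACA hosts differed little from control. SNHG15, the host of SNORA9, was at 55.06, 60.21 and 49.89 TPM (0.13 and -0.14), and SNHG11, the host of SNORA60 and SNORA71E, was at 18.03, 19.96 and 16.57 TPM (0.14 and -0.12). EPB41L4A-AS1, the host of SNORA13, was at 33.76, 32.70 and 38.41 TPM (-0.04 and 0.18). It was the only host lower under shUSP16#1 and higher under shUSP16#2, a pattern found in 4.53% of all genes compared. Over the 10 H/ACA hosts the median change was 0.11 and -0.29, with 2 lower and 2 higher under both hairpins, beside the same 57.2% and 24.5% of all genes.

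GAS5, SNHG12 and SNHG25 carry guests of both kinds. GAS5 (chr1:173863900-173868882, minus strand), first found as a transcript that accumulates in growth-arrested cells, holds 10 SNORD genes and 1 SNORA gene. It was at 138.71, 163.62 and 167.06 TPM, higher under both hairpins by 0.24 and 0.27, and by 0.56 and 0.73 after the GC trend was removed. SNHG12, with 4 guests, was at 23.30, 23.64 and 15.69 TPM, changes of 0.02 and -0.54. SNHG25, the shortest host at 278 bases, was at 13.29, 25.19 and 8.91 TPM. Its changes of 0.87 and -0.53 were the furthest apart of any host that lay on opposite sides of control.

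The 4 hosts of Cajal body RNAs were at 14.66 TPM or less in shCON. SNHG22 (chr18:49814023-49851059, plus strand), the host of SCARNA17, was at 2.95, 2.38 and 0.26 TPM, which was 80.7% and 8.81% of control. Its changes were -0.22 and -1.65, and under shUSP16#2 it fell further than any other host. How many reads stand behind values this low is unknown. SNHG22 shares 229 exonic bases with MYO5B on the opposite strand (13.31, 12.48 and 9.85 TPM). SNHG10, the host of SCARNA13, was at 4.97, 6.0 and 3.87 TPM (0.23 and -0.29), and shares 391 exonic bases with GLRX5 on the opposite strand (110, 90.0 and 96.6 TPM). SNHG20, the host of SCARNA16, was at 14.66, 16.32 and 13.49 TPM (0.15 and -0.11), and shares 460 exonic bases with SEC14L1 on the same strand (30.78, 29.31 and 21.82 TPM). SNHG21, the host of SCARNA15, was at 3.91, 4.46 and 2.56 TPM (0.15 and -0.46). In the last 3 of these the shCON value lay between the hairpins.

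**Figure D2:**
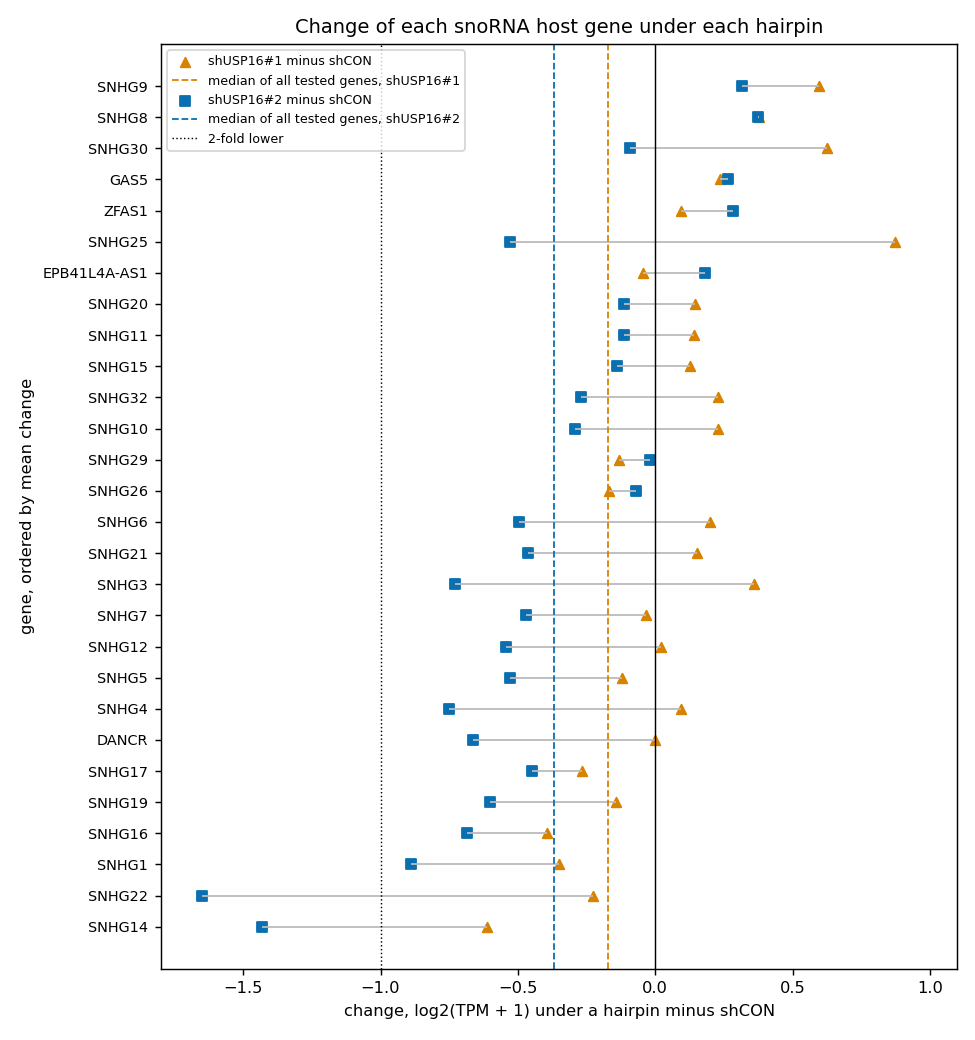
Change of each host in log2(TPM + 1) against shCON (horizontal axis) under shUSP16#1 and shUSP16#2, with genes ordered by the mean of both. Dashed lines mark the medians of all 13637 genes (-0.17 and -0.37) and the dotted line a 2-fold lower level, which SNHG14 and SNHG22 pass under shUSP16#2 alone.

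Counted over the 28 hosts, 0 were at least 2-fold lower under both hairpins, while 4.60% of all genes compared were. Likewise 0 hosts were at least 2-fold higher under both, against 1.14% of all genes. Under shUSP16#1 alone 0 hosts were at least 2-fold lower (5.79% of all genes), and under shUSP16#2 alone 2 hosts were, SNHG14 and SNHG22 (19.5% of all genes). At a 1.5-fold threshold, 3 hosts were higher under shUSP16#1 (SNHG9, SNHG30 and SNHG25), where 8.73% of all genes were, and 8 were lower under shUSP16#2, where 38.5% were. With 28 members, these counts give each share only coarsely.

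By direction alone, 10 of 28 hosts (35.7%) were lower under both hairpins, beside 57.2% of all genes, and 4 (14.3%) were higher under both, namely ZFAS1, GAS5, SNHG8 and SNHG9, beside 24.5%. The remainder lay on opposite sides of control, and 13 hosts (46.4%) were higher under shUSP16#1 and lower under shUSP16#2, a pattern that 12.9% of all genes showed. Some of these moves were small, as 6 hosts (21.4%) stayed within 1.2-fold of control under both hairpins, beside 17.1% of all genes. Compared directly, 23 hosts were lower under shUSP16#2 than under shUSP16#1, against 73.4% of all genes, and 9 were at least 1.5-fold lower, against 16.6%. These were SNHG6, DANCR, SNHG3, SNHG30, SNHG4, SNHG25, SNHG14, SNHG21 and SNHG22.

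The median change of the hosts was 0.09 under shUSP16#1 and -0.46 under shUSP16#2. Since the medians of all genes were themselves -0.17 and -0.37, the hosts lay above the typical gene by 0.26 in the first comparison and below it by 0.09 in the second, and the direction of the host median under shUSP16#1 was higher on either reading. Relative to the typical gene, 23 of 28 hosts were higher under shUSP16#1 and 13 under shUSP16#2. Each of these 13 hosts was among the 23. The 5 hosts below the typical gene under both hairpins were SNHG1, SNHG14, SNHG16, SNHG17 and SNHG22. A median splits all genes evenly in each comparison, while the share of all genes on the same side of both medians was not counted. These joint counts of hosts therefore stand without a background.

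Change moved with GC content across all genes, and the hosts showed little of this trend. Over 13296 genes with a GENCODE transcript, the rank correlation of change with GC content was 0.53 under shUSP16#1 and 0.63 under shUSP16#2. Over the 28 hosts it was 0.10 and 0.01. These are correlations across genes of the same libraries and are given as descriptions. Host GC content ran from 39.2% (SNHG26) to 66.5% (SNHG9), and hosts lay on either side of genes of like composition at both ends of this range. Among GC-poor hosts, GAS5, SNHG30, SNHG26 and SNHG6 lay above such genes under both hairpins and SNHG14 below them. SNHG16 lay next to such genes, with changes of -0.18 and -0.39 once the GC trend was removed. Among GC-rich hosts, SNHG9 lay above them and SNHG7 below them. With the GC trend removed, the host medians were 0.10 and -0.33 beside -0.18 and -0.37 for all genes. In that setting 15 hosts lay above the typical gene and 7 below it under both hairpins. Here too the share of all genes on the same side under both was not counted.

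**Figure D3:**
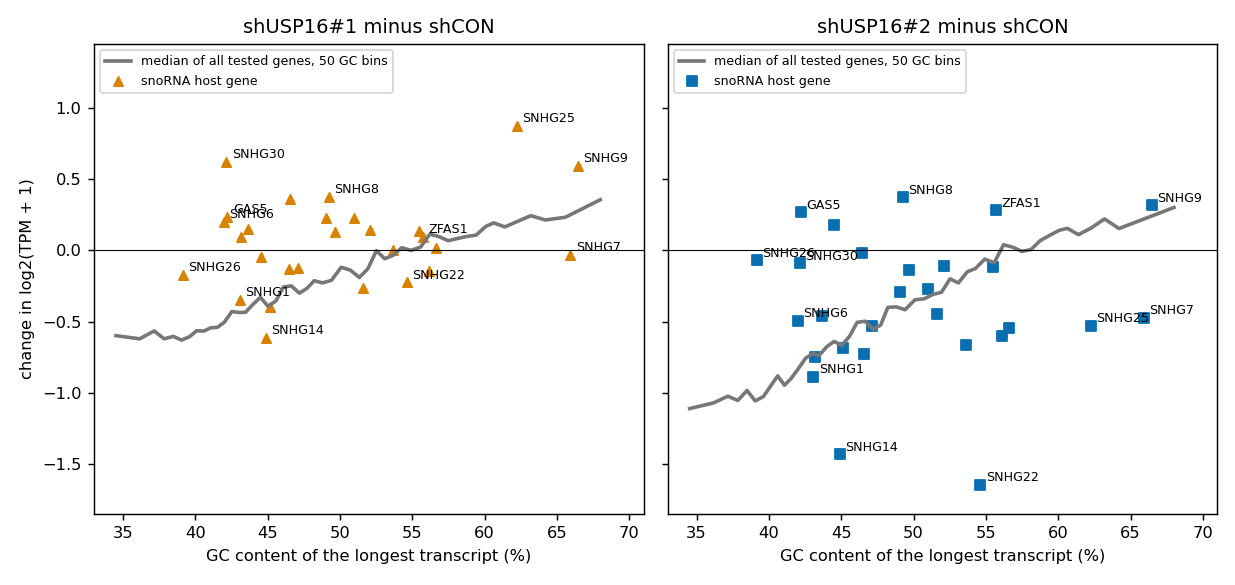
Change in log2(TPM + 1) against the GC content of the longest transcript in percent, for shUSP16#1 (left) and shUSP16#2 (right), with 1 point per snoRNA host gene and a line for the median of all tested genes in 50 GC bins. The line climbs with GC content in both panels while the hosts are scattered about it, with GAS5 above it and SNHG14 beneath it.

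The starts of the hosts are shown because hosts and ribosomal protein genes are known to share the pyrimidine tract at the first base. RefSeq promoter entries (GRCh38.p14) matched 28 of the 32 hosts, not including SNHG6, SNHG9, SNHG15 and SNHG25. Each line below gives 20 bases before the annotated start and 30 bases from it, in the sense of the gene, so that the transcript begins at base 21. In lines with the tract defined next, capitals mark the run of C and T that touches the start. Runs at the start that do not meet that definition stay in lower case. The first 6 are the compared hosts that begin with a C followed by at least 4 bases that are each C or T, at chr6:31834896-31834945 (SNHG32), chr20:49278622-49278671 (ZFAS1), chr16:2155329-2155378 (SNHG19), chr6:85678704-85678753 (SNHG5), chr1:28581844-28581893 (SNHG12) and chr5:139274081-139274130 (SNHG4). SNHG1 at chr11:62855856-62855905 and EPB41L4A-AS1 at chr5:112160506-112160555 are shown as hosts without such a tract at the RefSeq start.
SNHG32: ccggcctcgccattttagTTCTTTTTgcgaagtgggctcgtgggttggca
ZFAS1: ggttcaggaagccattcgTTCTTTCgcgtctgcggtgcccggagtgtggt
SNHG19: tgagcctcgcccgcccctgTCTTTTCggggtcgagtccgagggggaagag
SNHG5: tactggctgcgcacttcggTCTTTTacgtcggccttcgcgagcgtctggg
SNHG12: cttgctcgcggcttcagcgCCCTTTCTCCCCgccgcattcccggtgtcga
SNHG4: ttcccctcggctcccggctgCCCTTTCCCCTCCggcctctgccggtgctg
SNHG1: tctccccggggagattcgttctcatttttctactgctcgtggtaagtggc
EPB41L4A-AS1: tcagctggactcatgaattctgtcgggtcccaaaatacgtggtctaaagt

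Searched on the sense strand at the annotated first base, the tract was present in 7 of 28 hosts (25%, with SNHG18 as the seventh), in 13 of 23 promoters of ribosomal protein genes that host snoRNAs (56.5%) and in 4.07% of all 35116 promoters. Allowing the tract to begin within 5 bases of the annotated start raised this to 13 hosts (46.4%), beside 21.1% of all promoters. A match describes these letters at an annotated position and does not show where transcription began in PC3 cells. Of hosts with no RefSeq entry, SNHG6 begins with the tract in 3 of 5 GENCODE 29 transcripts and SNHG25 in 2 of 2. SNHG9 (0 of 2) and SNHG15 (0 of 10) have no such transcript. Several hosts without the tract at their RefSeq start have it in some GENCODE 29 transcripts. This held for 6 of 30 transcripts of SNHG29, 2 of 8 of SNHG16, 1 of 3 of SNHG3, 1 of 5 of SNHG8, 1 of 15 of SNHG11 and 1 of 25 of SNHG1. For GAS5 it held for 6 of 29, and the first 40 bases of transcript GAS5-219 read as follows, with the tract in capitals.
GAS5-219: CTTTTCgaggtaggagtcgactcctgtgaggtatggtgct

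Hosts with and without the tract at the RefSeq start overlapped in their changes. The 6 compared hosts with the tract at the first base of their RefSeq entry had median changes of 0.06 and -0.53. The 18 hosts without it there, of which 7 have it in some GENCODE transcripts, had median changes of -0.02 and -0.37. SNHG6, SNHG9, SNHG15 and SNHG25 had no RefSeq entry and were in neither group. Within the first group ZFAS1 was higher under both hairpins, SNHG5 and SNHG19 were lower under both, and SNHG4, SNHG12 and SNHG32 lay on opposite sides of control. With the tract allowed to begin within 5 bases, 11 hosts had it, with median changes of 0.00 and -0.53. The 13 hosts without it there had medians of 0.14 and -0.12, a wider gap under shUSP16#2. Mean changes ran from -0.54 to 0.37 in the former and from -1.02 to 0.27 in the latter.

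The protein-coding hosts of snoRNAs, a list of 42 genes, offered the nearest comparison, since their guests are made in the same way. The 26 that encode ribosomal proteins had median changes of 0.23 and 0.24. Of these, 19 were higher under both hairpins, beside 24.5% of all genes compared. In this group RPL32 was at 642.83, 1190.15 and 1148.36 TPM, RPL13 at 5740.04, 8444.22 and 9341.91 TPM, and RPS3 at 2642.77, 3801.96 and 3845.02 TPM. The other 16 had median changes of -0.48 and -0.72. Beside 4.60% of all genes compared, 3 of them fell by at least 2-fold under both hairpins. These were NCL, encoding nucleolin, at 576.07, 244.65 and 195.66 TPM, the translation factor gene EIF4G2 at 381.54, 164.87 and 98.74 TPM, and TAF1D, a polymerase I factor gene, at 138.20, 66.49 and 44.85 TPM. The non-coding hosts, with medians of 0.09 and -0.46, lay between these groups. The split by ribosomal protein was made after the values were seen. Other long non-coding genes of GENCODE 29 (1150 compared) had median changes of 0.04 and -0.22.

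The genes for proteins that build on the guests had lower median changes from shCON than the hosts. Of 19 genes for snoRNP (small nucleolar ribonucleoprotein) proteins and their assembly factors, 16 were lower under both hairpins, beside 57.2% of all genes compared, and the medians were -0.58 and -0.81. NOP58, a core protein of box C/D particles, fell from 86.57 TPM to 37.42 and 23.26 TPM, and the assembly factor gene RPAP3 from 16.00 TPM to 7.40 and 5.45 TPM. The next in order was GAR1, a core protein gene of box H/ACA particles, at 71.18, 37.19 and 32.76 TPM. FBL, the methyltransferase of box C/D particles, was at 533.24, 526.78 and 531.15 TPM, within 0.02 of control on the log2 scale. RUVBL2 (182.86, 201.26 and 199.59 TPM), NOP10 (415.35, 503.68 and 422.04 TPM) and PIH1D1 (120.70, 166.45 and 170.29 TPM) were the members higher under both.

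The genes of nonsense-mediated decay, the route that degrades many spliced host RNAs, had medians of -0.57 and -0.85, with 22 of 24 lower and 0 higher under both hairpins, beside 57.2% and 24.5% of all genes. SMG1, the kinase that phosphorylates UPF1, fell from 10.38 TPM to 3.47 and 2.46 TPM, and PNRC2 fell from 35.32 TPM to 16.24 and 14.64 TPM. ETF1, which encodes the factor that recognises stop codons, was the next in order at 56.69, 29.65 and 21.38 TPM. Among 16 regulators of 5′ TOP translation, 12 were lower under both hairpins, again beside 57.2% of all genes, and the medians were -0.52 and -0.63. LARP4 fell from 32.98 TPM to 12.12 and 7.47 TPM and RPS6KB1, the S6 kinase, from 15.54 TPM to 6.80 and 6.23 TPM, with MTOR next at 17.62, 8.81 and 8.27 TPM. RPS6KB2, EIF4EBP1 and TSC2 were the highest of the 4 members higher under both, with RPS6KB2 at 94.71, 124.16 and 125.77 TPM. The hosts lay above all 3 of these groups in both comparisons, by their medians. With the GC trend removed the medians were -0.37 and -0.65 for the decay genes and -0.44 and -0.63 for the 5′ TOP regulators. Those of the snoRNP genes were -0.40 and -0.45, beside 0.10 and -0.33 for the hosts and -0.18 and -0.37 for all genes.

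**Figure D4:**
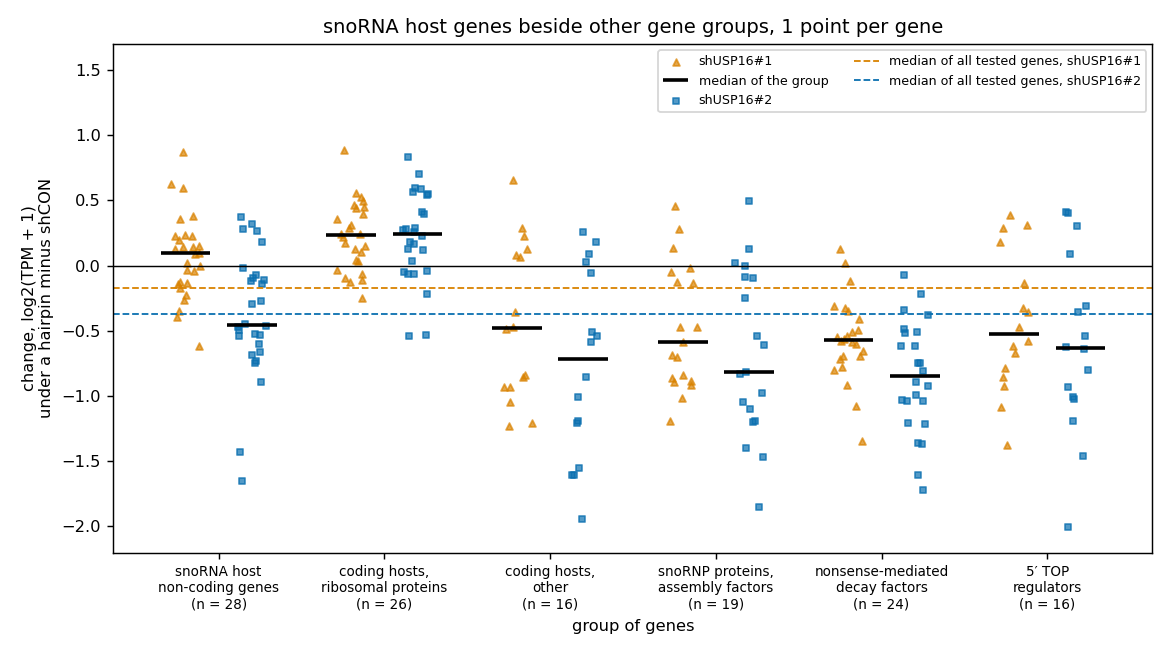
Change in log2(TPM + 1) against shCON (vertical axis) for each gene of 6 groups under shUSP16#1 and shUSP16#2, with 1 point per gene, a bar at the median of the group and dashed lines at the medians of all tested genes. The bar of the non-coding hosts (0.09 and -0.46) lies between those of the ribosomal protein hosts (0.23 and 0.24) and of the other coding hosts (-0.48 and -0.72).

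The guests themselves could not be followed. GENCODE 29 places 144 snoRNA and Cajal body RNA entries inside the hosts on the same strand, 84 of them in SNHG14, and 140 are shorter than 200 bases. Of the 144 entries, 132 were listed at 0 in all 3 libraries and 0 were above 0 in each of them. The 12 others appeared in 1 or 2 libraries, such as SNORA73A in SNHG3 at 16.93, 0 and 44.97 TPM and SNORD22 in SNHG1 at 0, 0 and 47.33 TPM. By GENCODE 29, 99 of the 144 entries lie in no exon of a host transcript. The others lie within an exon of some host transcript, such as SNORA50C in SNHG25 (0, 10.31 and 17.96 TPM). The values of the hosts give no separate reading of the snoRNAs. What reads of guests or of overlapping genes add to the host values was not tested.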

How the data were processed

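Total RNA of PC3 cells expressing shCON, shUSP16#1 or shUSP16#2 (1 library each) was extracted with Trizol and prepared with an Illumina TruSeq RNA kit. What the authors deposited is a single table that lists TPM for 60930 genes to 2 decimals. The submitters' processing notes name CASAVA, HISAT2 and the build hg19, while 58516 identifiers matched GENCODE 29, which is on GRCh38, so the build used is unsettled. The quantification tool is not given in the sources used here. Coordinates, GC content and overlaps come from GENCODE 29, and promoters and guest names from RefSeq (GRCh38.p14), matched by identifier or symbol. The file itself holds no coordinates. It repeats 3 columns, which were not used.

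Where a name repeated, the entry with the highest mean was kept (1211 left out, 59719 kept), and genes whose mean reached 1 TPM (13637) were compared. Change is the difference in log2(TPM + 1), which understates the change of low genes. The GC trend was removed in 50 bins of the GC content of the longest transcript. A call was a change of at least 2-fold. No test across samples was possible with 1 library per group, so none was made. The procedure was tested on simulated data.

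Every host with a mean of at least 1 TPM was named with its values. In each other list the 3 lowest and the 3 highest genes under both hairpins were named, ordered by the smaller of their 2 changes. FBL was picked once its values were known. The members and lists were chosen with earlier results of these data known. Alternatives were a pseudocount of 0.1, no minimum, a minimum of 5 TPM, centring on the all-gene median, removal of the GC trend, scaling to nuclear protein-coding genes, a 1.5-fold threshold and each hairpin alone. Python 3.11.15, numpy 2.4.6, pandas 2.3.3 and matplotlib 3.10.9 were used.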

Additional observations from a re-analysis of the deposited data

Results flagged for a closer look

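For 14 of the 28 hosts the libraries of the 2 hairpins lay on opposite sides of shCON. Among them, DANCR and SNHG12 barely differed from shCON under shUSP16#1, with changes of 0.00 and 0.02. With 1 library per hairpin the difference was not tested, and the values below are the log2(TPM + 1) of shUSP16#2 minus that of shUSP16#1. It was -1.40 for SNHG25, -1.09 for SNHG3, -0.84 for SNHG4, -0.72 for SNHG30, -0.69 for SNHG6 and -0.66 for DANCR. It was -0.62 for SNHG21, -0.56 for SNHG12, -0.52 for SNHG10 and -0.50 for SNHG32. The smallest gaps were -0.27 for SNHG15, -0.26 for SNHG20, -0.25 for SNHG11 and 0.23 for EPB41L4A-AS1, the last being the host that was higher under shUSP16#2. Over all 13637 genes compared, the median of the same difference was -0.21, and USP16 itself was at 3.50 TPM with the first hairpin and 1.08 TPM with the second.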

How the results depend on the processing

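The count of hosts at least 2-fold lower under both hairpins stayed at 0 with a pseudocount of 0.1, no minimum, a minimum of 5 TPM, centring, removal of the GC trend and scaling to nuclear protein-coding genes. It was 1 at a 1.5-fold threshold, and 2 hosts were 2-fold lower under shUSP16#2 alone. No host was 2-fold higher under both hairpins in any of these settings. Centring on the all-gene median turned the median change averaged over both hairpins from -0.13 to 0.14, and the summed level under shUSP16#2 from -0.20 to 0.17 on the log2 scale. It moved the median from 0.09 to 0.26 under shUSP16#1 and from -0.46 to -0.089 under shUSP16#2, and the summed level under shUSP16#1 from 0.09 to 0.26, because the centring subtracts the medians of all genes. With the GC trend removed the median under shUSP16#2 was -0.33. Of the 28 single hosts, 11 changed the sign of their mean change when the GC trend was removed, 10 when centred and 1 when scaled. A pseudocount of 0.1 moved 2 by more than 0.1, most of all SNHG22, by 0.75. No paired analysis was possible because no group held more than 1 library. TPM keep no depth, so counting error is unknown for every host.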
